A study of Arabidopsis thaliana with 12 samples.

Results

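Roots of *Arabidopsis thaliana* that expressed the soybean gene *GmNTL4* were compared with wild-type roots in the absence of aluminium (Al). The 6 libraries are 3 of *GmNTL4*-overexpressing plants without Al (OX control) and 3 of the wild type without Al (WT control), out of 12 in the series. The other 6 are OX Al and WT Al, the same genotypes with Al, labelled as 24 h of Al while the design text of the series gives 48 h. According to the methods, the transgene was driven by the 35S promoter and seedlings grew in an acidic solution without phosphate, which the Al-treated plants received with Al added. The methods describe the growth of the Al-treated seedlings, so the OX control and WT control libraries are known from their labels. More than 1 overexpressing line was made, and the line sequenced is not named. Expression of *GmNTL4* itself was not analysed here, so the values below carry no check of the transgene. Of 25872 genes in the table, 19966 had at least 0.5 FPKM (the fragment count of a gene scaled to its transcript length and to the size of the library) in at least 3 of the 6 control libraries, and these genes were tested.

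GmNTL4 belongs to the NAC transcription factors that are anchored in a membrane (NTL factors). Such a factor is held outside the nucleus until it is released, often by proteolytic cleavage, and then enters the nucleus and acts on its target genes. In Arabidopsis, members of this family are known for responses to stress of mitochondria, of the endoplasmic reticulum and of the proteasome, and for responses to cold and abscisic acid. Genes of these responses, of Al resistance, of root tissues and of other pathways were listed by hand, with earlier results of these data known. They are described below beside the genes that differed most. Shares within these lists are descriptions and not independent evidence.

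In the absence of Al, 7 genes rose and 2 fell in OX roots, which is 0.0351% higher and 0.0100% lower of the 19966 genes tested. A call by limma on log2(FPKM + 0.5) took an adjusted p (Benjamini-Hochberg) no higher than 0.05 and a log2 fold change of 1 or more in either direction. Before adjustment, p was under 0.05 for 579 genes that were higher (2.90%) and 370 that were lower (1.85%). All 3 OX libraries lay above all 3 WT libraries for 784 genes (3.93%) and below them for 768 genes (3.85%). Differences reached 1 on the log2 scale for 166 genes that were higher and 102 that were lower. The fit used all 12 libraries for the estimate of spread. With only the 6 libraries without Al, 0 genes were called by limma, while 784 had an unadjusted p under 0.05. By limma voom on the fragments read back from the FPKM, 2 genes rose and 0 fell.

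The 6 control libraries held 16165437 to 17138982 fragments, and replicates of a group correlated at 0.948 to 0.979. WT control replicate 1 stood apart. It lay at 52.7 on the first principal component (35.2% of the variance), where the other control libraries lay between -26.5 and 17.3. Its mean over 25 photosynthesis genes was 4.67 on the log2(FPKM + 0.5) scale, against 2.4 to 2.93 in the other control libraries. OX control replicate 1 stood apart on the second component (24% of the variance). It lay at -44.2, and the other control libraries lay between -5.85 and 22.3. The labelled root tissue was checked by its markers. *SCR* and *SHR*, which specify the ground tissue of the root, were at 17.2 to 22.0 and 14.5 to 18.8 FPKM in OX control and at 18.6 to 28.6 and 17.4 to 23.1 FPKM in WT control roots. Of the 6 root tip and stele markers listed, 3 were higher and 3 lower in OX control (median log2 fold change -0.02). *PLT1* was at 6.78, 8.59 and 8.66 FPKM in OX control and at 7.66, 4.82 and 4.89 FPKM in WT control roots. Its log2 fold change was 0.46 (limma unadjusted p = 0.0298, adjusted p = 0.959). The shoot meristem gene *STM* was at 0 in all 3 OX control libraries and at up to 0.242 FPKM in WT control, and the guard-cell gene *FAMA* was at 0 in all 6. *WUS* and *SPCH*, of the shoot meristem and the stomatal lineage, were at no more than 0.277 FPKM in any control library. *BP* (AT4G08150), listed with the shoot apex genes, was at 8.44 to 13.8 FPKM in OX control and 8.63 to 13.7 FPKM in WT control roots. Of the 9 shoot apex and leaf epidermis genes listed, 6 had values. *BP* and 1 other gene passed the filter, with log2 fold changes of -0.06 to 0.04.

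Of the 9 called genes, 5 were also called in the same direction in OX Al over WT Al roots: AT2G01422, *QQS*, *PP2-B1*, AT5G04080 and *MEE65*. Under Al, 6 genes rose (0.0301% of those tested) and 2 fell (0.0100%). The 2 comparisons share no library but share the estimate of spread. The sequences directly upstream of the annotated starts of these 5 genes are shown because these genes differed by genotype in both sets of libraries. They were read 5′ to 3′ from RefSeq TAIR10.1 on the strand of each gene, up to 250 bases, and begin after the exon of the preceding gene where one lies closer. Capitals mark a match, on either strand, to CATGT, which the study counts as a putative NAC-binding sequence. The windows are chr2:183765-183939 (plus strand) for AT2G01422, chr3:12348797-12349046 (plus) for *QQS*, chr2:591690-591939 (minus) for *PP2-B1*, chr5:1104447-1104523 (plus) for AT5G04080 and chr2:145426-145675 (plus) for *MEE65*.
AT2G01422: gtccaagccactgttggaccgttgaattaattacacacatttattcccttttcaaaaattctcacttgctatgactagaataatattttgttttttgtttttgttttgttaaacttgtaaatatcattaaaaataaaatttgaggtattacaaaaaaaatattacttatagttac
QQS: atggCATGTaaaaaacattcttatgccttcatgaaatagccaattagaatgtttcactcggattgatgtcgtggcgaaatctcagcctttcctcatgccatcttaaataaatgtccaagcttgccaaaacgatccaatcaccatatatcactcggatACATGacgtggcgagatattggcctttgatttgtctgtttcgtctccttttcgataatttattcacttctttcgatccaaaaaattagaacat
PP2-B1: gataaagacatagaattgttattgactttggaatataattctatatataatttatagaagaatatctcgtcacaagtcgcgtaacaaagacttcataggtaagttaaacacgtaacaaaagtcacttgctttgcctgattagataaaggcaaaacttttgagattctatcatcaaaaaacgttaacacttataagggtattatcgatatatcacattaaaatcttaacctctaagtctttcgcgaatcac
AT5G04080: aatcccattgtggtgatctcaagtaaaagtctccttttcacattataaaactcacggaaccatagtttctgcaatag
MEE65: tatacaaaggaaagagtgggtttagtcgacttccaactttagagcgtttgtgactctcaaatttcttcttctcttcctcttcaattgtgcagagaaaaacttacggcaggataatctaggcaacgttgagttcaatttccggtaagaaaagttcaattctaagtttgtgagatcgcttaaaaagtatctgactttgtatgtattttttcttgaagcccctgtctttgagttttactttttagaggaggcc

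CATGT was found in 1 of the 5 windows. It occurred 2 times upstream of *QQS*, once as CATGT and once as its reverse complement ACATG, starting 246 and 93 bases before the gene. Of 19826 tested genes with a 250-base window, 34.2% held CATGT on either strand. In windows of 175 bases, the length shown for AT2G01422, the share was 24.7%, and in windows of 77 bases, the length shown for AT5G04080, it was 10.8%. A second sequence, CTTG followed by any 5 bases and CA on either strand, is the constant part of the mitochondrial dysfunction motif known from Arabidopsis NAC013 and NAC017. It was in none of the 5 windows and in 7.33% of all 250-base windows. A match to CATGT can overlap one to this sequence.

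The most significant gene was AT2G01422, a non-coding RNA of unknown function on the plus strand of chromosome 2 (183940 to 184734). It was at 7.93, 9.57 and 6.53 FPKM in OX control and at 0.741, 0.294 and 0.377 FPKM in WT control roots. All OX libraries lay far above all WT libraries, with 86 to 123 fragments in each OX library and 4 to 10 in each WT library. The log2 fold change reached 3.14 ± 0.25 (SE, n = 3 per group, limma adjusted p = 0.00134), and the ratio of mean FPKM was 17.0. Under Al the values were 8.41, 10.1 and 11.5 FPKM in OX and 0.0749, 0.524 and 0.3 FPKM in WT (log2 fold change 3.75, adjusted p = 0.000211, limma).

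*QQS* (AT3G30720) showed the largest fold change of the genes tested on the log2(FPKM + 0.5) scale, which compresses the difference of low genes such as *MEE65*. It is an orphan gene of Arabidopsis that is known for its effect on leaf starch. It had 9.0, 30.4 and 15.8 FPKM in OX control and 1.63, 0.596 and 0.786 FPKM in WT control roots. The OX libraries thus differed among themselves by more than the WT libraries, yet the lowest of them lay above every WT library. The log2 fold change reached 3.55 ± 0.37 (SE, n = 3 per group, limma adjusted p = 0.00673), and under Al it was 2.99 (adjusted p = 0.0219). *QQS* was listed with the carbon starvation genes, and the other 11 genes of that list lay between -0.49 and 0.56, none with an unadjusted p under 0.05. *DIN6* (asparagine synthetase), *DIN1* and *DIN10*, which rise when sugars run short, had log2 fold changes of 0.56 (SE 0.93), 0.02 (SE 0.59) and -0.39 (SE 0.26).

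*PP2-B1* (AT2G02230), an F-box protein of the phloem protein 2 family, was at 38.8, 29.4 and 34.7 FPKM in OX control and at 11.8, 16.8 and 14.1 FPKM in WT control roots. The groups did not overlap, and the log2 fold change reached 1.24 ± 0.15 (SE, limma adjusted p = 0.0166). The gene lies on the minus strand of chromosome 2 (589945 to 591689) in a cluster of related genes. Of the 5 other members of the cluster that were tested, *PP2-B2* (AT2G02250) had 1.68, 3.29 and 4.47 FPKM in OX control and 0.923, 1.38 and 1.41 FPKM in WT control roots, and was not called (log2 fold change 1.0, adjusted p = 0.65). *PP2-B10* (AT2G02360), the most abundant member, had 46.0 to 58.2 FPKM in OX control and 47.2 to 53.7 FPKM in WT control roots (log2 fold change 0.07).

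*DTX14* (AT1G71140) encodes a transporter of the MATE family, whose members export organic acids, toxins and other compounds. It was at 7.24, 5.94 and 4.93 FPKM in OX control and at 1.68, 1.35 and 0.955 FPKM in WT control roots. Every OX library was above every WT library, with a log2 fold change of 1.84 ± 0.26 (SE, limma adjusted p = 0.0456). Under Al it was at 14.7, 25.5 and 20 FPKM in OX and 5.78, 8.62 and 4.67 FPKM in WT, also without overlap (log2 fold change 1.59, adjusted p = 0.0901). The study chose *DTX14* on the Al libraries of this series.

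*PARG2* (AT2G31865), which removes poly(ADP-ribose) chains from proteins, was at 32.3, 29.8 and 40.1 FPKM in OX control and at 17.4, 18.1 and 13.7 FPKM in WT control roots (log2 fold change 1.03, adjusted p = 0.0456, limma). AT5G13200, a GRAM-domain protein, was at 40.5, 35.2 and 50.4 FPKM in OX control and at 16.7, 20.2 and 16.5 FPKM in WT control roots (log2 fold change 1.2, adjusted p = 0.0456). AT5G04080, a small cysteine-rich protein with a transmembrane module annotated to stress tolerance, was at 29.0, 31.0 and 25.7 FPKM in OX control and at 17.3, 10.9 and 14.3 FPKM in WT control roots (log2 fold change 1.01, adjusted p = 0.0475). None of these 3 genes overlapped between the groups, and under Al their log2 fold changes were 0.66, 0.85 and 1.42. AT5G04080 overlaps the gene AT5G04090 on the opposite strand, which was at 16.9 to 18 FPKM in OX control and 16.9 to 18.3 FPKM in WT control roots.

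The 2 genes that fell were of low abundance in the wild type. *MEE65* (AT2G01280), annotated as a Brf1-like TBP-binding protein (Brf1 is part of a general factor of RNA polymerase III), was at 0.0245, 0.0780 and 0.127 FPKM in OX control and at 1.04, 1.57 and 1.77 FPKM in WT control roots. These values rest on 1, 3 and 5 fragments in OX control and 42, 64 and 70 in WT control. The log2 fold change came to -1.75 ± 0.22 (SE, limma adjusted p = 0.0215), a scale on which low values are compressed, and the ratio of mean FPKM, WT over OX, was 19.1. *RPI2* (AT2G01290), which overlaps *MEE65* on the opposite strand, was at 2.08 to 3.15 FPKM in OX control and 1.8 to 4.0 FPKM in WT control roots.

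AT1G64795, an uncharacterised protein gene on chromosome 1 (24082579 to 24082848), had 0 fragments in each OX control library and 10, 9 and 5 in the WT control libraries. Its level was therefore at least 7.86-fold lower in OX control than in WT control, taking 3 fragments over the group as the floor. It had 0 fragments in the OX Al libraries as well, against 4, 3 and 2 in WT Al (at least 2.94-fold lower). The gene lies within *ILA* (AT1G64790) on the opposite strand, which had 19.6 to 32.1 FPKM in OX control and 20.3 to 26.3 FPKM in WT control roots, and the sources used here do not state whether strand was used in counting.

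**Figure D1:**
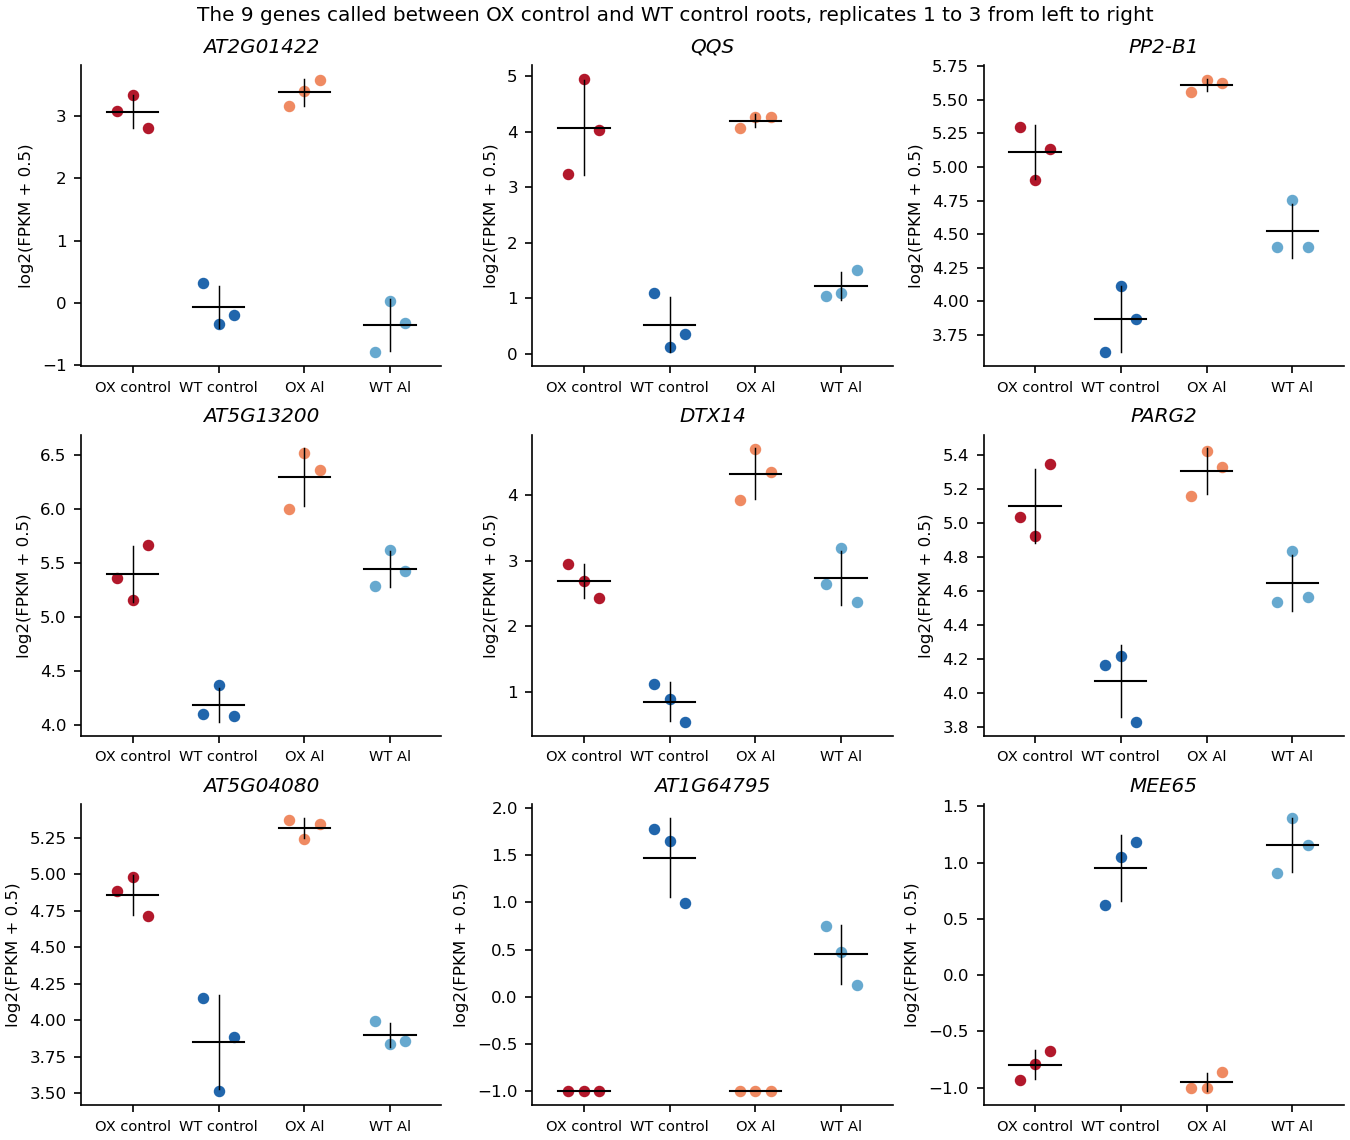
Expression of the 9 called genes as log2(FPKM + 0.5) in each of the 12 libraries, 3 points per group, with the group mean (horizontal line) and SD (vertical line). In each gene the 3 OX control points lie on 1 side of the 3 WT control points, and the OX Al and WT Al points are separated in the same direction.

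In all 9 called genes the OX Al and WT Al libraries were also separated without overlap and in the same direction. Such separation was more frequent under Al than without it, with OX above in 8.81% and below in 11.0% of all genes. AT2G01422 kept its call with each of the 6 control libraries left out in turn (adjusted p 0.00206 to 0.0154). *QQS* kept it in 3 of these 6 fits (0.00392 to 0.0959), *PP2-B1* in 2 (0.0231 to 0.136), and AT5G13200 and AT5G04080 in 1 each (0.0446 to 0.229 and 0.0170 to 0.229). *DTX14* and *PARG2* lost it in all 6 (0.0854 to 0.229 and 0.0673 to 0.229). Without a WT library, *MEE65* and AT1G64795 fell below the filter, and in the 3 fits without an OX library AT1G64795 was called 2 times (0.0231 to 0.0576) and *MEE65* not at all (0.0712 to 0.133). Over all genes, 3, 8 and 1 were called without OX control replicate 1, 2 or 3, and 4, 2 and 1 without WT control replicate 1, 2 or 3.

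Of the 9 called genes, 3 lie near the start of chromosome 2: *MEE65* at 145676, AT2G01422 at 183940 and *PP2-B1* at 589945. The region was looked at after this had been seen. In the first 700000 bases of the chromosome, 122 genes were tested. Of these, 10 (8.2%, against 4.75% of all genes) had an unadjusted p under 0.05, 6 higher and 4 lower in OX control. The 3 called genes that drew attention to the region are among the 10, and the median log2 fold change was 0.00.

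Below the calls, the genes with the smallest p that differed by 1 or more on the log2 scale without overlap were taken to bring each direction to 12. The 5 on the higher side included *GSTU22* (AT1G78340), a tau-class glutathione S-transferase that conjugates glutathione to toxic compounds. It was at 39.9, 19.0 and 35.3 FPKM in OX control and at 12.7, 8.30 and 6.6 FPKM in WT control roots (log2 fold change 1.70, adjusted p = 0.177, limma). With OX control replicate 2 left out it passed the test (adjusted p = 0.0446), and with each of the other 5 libraries left out it did not. AT4G33660, which carries the same cysteine-rich transmembrane annotation as AT5G04080, was at 4.2, 3.71 and 4.25 FPKM in OX control and at 1.41, 2.11 and 1.17 FPKM in WT control roots (log2 fold change 1.17, adjusted p = 0.142). *TLP-3* (AT1G75030), a thaumatin-like protein, was at 9.55, 9.39 and 10.5 FPKM in OX control and at 3.41, 4.19 and 5.17 FPKM in WT control roots (log2 fold change 1.13, adjusted p = 0.177). Under Al *TLP-3* did not separate the genotypes, with 11.3 to 19.7 FPKM in OX and 18.9 to 20.9 FPKM in WT roots. AT5G19800, a hydroxyproline-rich glycoprotein of the cell wall type, was at 3.86 to 6.15 FPKM in OX control and 0.822 to 2.06 FPKM in WT control roots, and the snoRNA gene AT1G04517 was at 5.16 to 12.2 and 0.697 to 2.1 FPKM, with no more than 17 fragments in a library.

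On the lower side, *HEI10* (AT1G53490), known for its part in meiotic crossover formation, was at 3.24, 2.53 and 3.38 FPKM in OX control and at 8.42, 10.3 and 6.61 FPKM in WT control roots (log2 fold change -1.32, adjusted p = 0.0678, limma). Under Al it passed the test, with 2.39 to 3.13 FPKM in OX and 7.03 to 10.5 FPKM in WT (log2 fold change -1.44, adjusted p = 0.0396). AT5G33355, a defensin-like protein, was at 8.88, 4.34 and 7.01 FPKM in OX control and at 29.5, 25.4 and 43.3 FPKM in WT control roots (log2 fold change -2.21, adjusted p = 0.32). The lncRNA AT3G05945 was at 1.39 to 3.30 FPKM in OX control and 7.92 to 20.3 FPKM in WT control roots, and AT5G26270, an uncharacterised protein, at 46.5 to 72.0 and 101 to 158 FPKM. *AT4* (AT5G03545), a phosphate starvation transcript known as a decoy of the microRNA miR399, was at 49.4, 59.5 and 91.4 FPKM in OX control and at 206, 156 and 255 FPKM in WT control roots (log2 fold change -1.63, adjusted p = 0.33). The groups did not overlap in *AT4* without Al and did under Al. The other 5, AT4G12530, AT2G08735, AT5G43064, ATCG00660 and AT4G07868, had mean FPKM of 0.0918 to 0.566 in OX control and 1.44 to 2.75 in WT control roots. ATCG00660 was below in OX control and above in OX Al roots, without overlap in either set, and the interaction of genotype and Al had an unadjusted p of 0.00049 (adjusted p = 0.935, limma).

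Root hair genes had the highest median of the 18 lists of pathway and tissue genes. Root hairs are outgrowths of epidermal cells. Their growth is driven in Arabidopsis by the transcription factors RHD6, RSL2 and RSL4, and their walls contain dedicated expansins, extensins and proline-rich proteins. Of 15 listed genes 14 were tested, and *RSL1* was below the filter. The median log2 fold change was 0.99, against -0.01 for all genes tested, and 13 of 14 were higher in OX control roots. None was called. An unadjusted p under 0.05 was found for 8 of 14, all higher, against 2.90% of all genes, and 7 of 14 had no overlap, with OX above, against 3.93% of all genes. In whole roots, a change in the number of root hair cells and one in RNA per cell cannot be told apart.

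Among the wall proteins, *PRP3* (AT3G62680), a proline-rich protein, was at 34.2, 34.0 and 34.7 FPKM in OX control and at 13.5, 15.9 and 5.50 FPKM in WT control roots. *LRX1* (AT1G12040), a leucine-rich repeat extensin that shapes the hair wall, was at 12.5, 12.5 and 14.6 FPKM in OX control and at 5.82, 5.40 and 2.30 FPKM in WT control roots. In both genes the 3 OX values lay close together and above the WT values, of which replicate 3 was the lowest. The log2 fold change was 1.65 for *PRP3* (SE 0.43, adjusted p = 0.477, limma) and 1.54 for *LRX1* (SE 0.37, adjusted p = 0.381). *PRP1* (AT1G54970) was at 7.78, 10.1 and 7.87 FPKM in OX control and at 3.82, 3.71 and 1.18 FPKM in WT control roots. The expansin gene *EXPA7* (AT1G12560) was at 28.0, 30.0 and 34.0 FPKM in OX control and at 22.4, 10.8 and 6.23 FPKM in WT control roots.

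Of the regulators, *RSL4* was at 3.23, 4.99 and 8.07 FPKM in OX control and at 3.43, 3.59 and 0.538 FPKM in WT control roots. *RHD6* and *RSL2* had log2 fold changes of 0.45 (SE 0.32) and 0.64 (SE 0.44). For *GL2*, *CPC* and *WER*, which set the hair or non-hair fate of epidermal cells, they were 0.11 (SE 0.37), -0.03 (SE 0.20) and 0.01 (SE 0.42). *RBOHC*, the NADPH oxidase of the hair tip, was at 16.9 to 17.1 FPKM in OX control and 14.5 to 15.2 FPKM in WT control roots (log2 fold change 0.19, SE 0.23).

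The mean of the 14 root hair genes on the log2(FPKM + 0.5) scale was 2.89, 2.90 and 3.11 in OX control and 2.60, 2.2 and 1.61 in WT control libraries. WT replicate 3 was thus the lowest. Without it, the median log2 fold change of the list was 0.56 and 6 of 14 genes were higher at an unadjusted p under 0.05, against 2.21% of all genes in that fit. Without WT replicate 1, which has the high photosynthesis values, the median was 1.06 with 8 of 14, against 3.98%.

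Under Al the same genes were mostly lower in OX roots. The list means were 2.41, 1.65 and 1.91 in OX Al and 2.80, 2.15 and 2.77 in WT Al libraries. Of the 14 genes 13 were lower (median log2 fold change -0.66), where 11026 of all 19966 genes were lower under Al. An unadjusted p under 0.05 was found for 4 of the 13, against 6.02% of all genes lower at that p under Al. Only 2 of 14 had no overlap, with OX below, against 11.0% of all genes. *PRP3* was at 19.9, 6.0 and 9.07 FPKM in OX Al and at 21.2, 14.3 and 25.6 FPKM in WT Al roots. The interaction of genotype and Al had an unadjusted p under 0.05 in 10 of 14 root hair genes, against 4.98% of all genes tested. After adjustment over all genes none passed (lowest adjusted p = 0.935, limma). Of all tested genes, 0 (0%) were called for this interaction, by voom 0 as well, and 995 had an unadjusted p under 0.05.

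**Figure D2:**
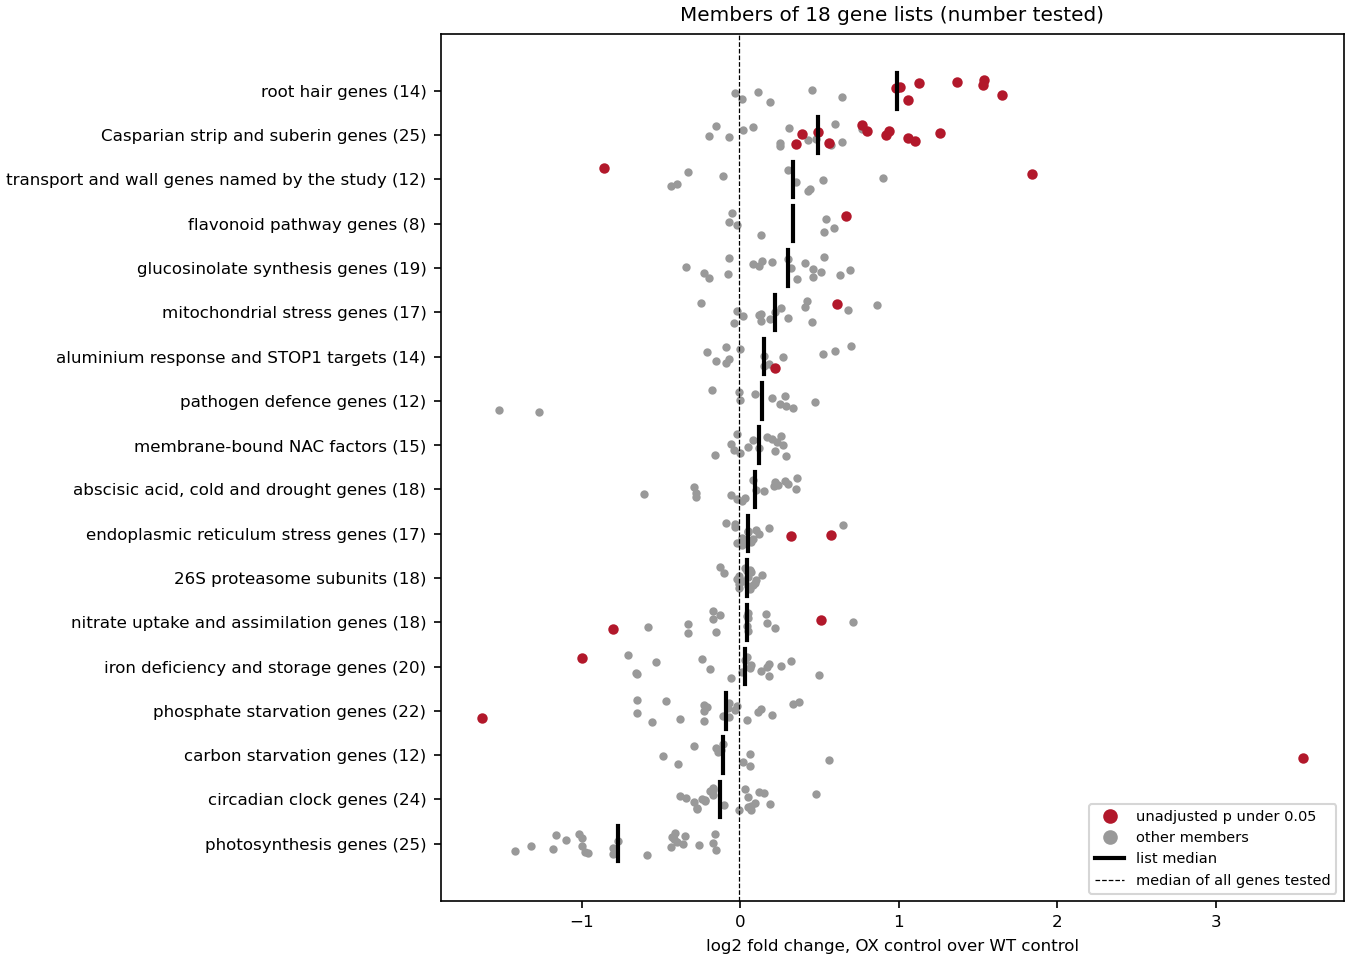
Log2 fold change of OX control over WT control roots for the tested members of 18 gene lists, with 1 point per gene, red where the unadjusted p was under 0.05, and a bar at the list median. Root hair genes (median 0.99) and Casparian strip and suberin genes (0.49) lie to the right and photosynthesis genes (-0.77) to the left of the median of all genes tested (-0.01).

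Genes of the endodermal barriers were the second group with a raised median. The endodermis seals the root with the Casparian strip, a lignin band placed by CASP proteins, and later with suberin, a polyester made by fatty acid elongases, reductases and hydroxylases and exported by ABC transporters. Of 27 listed genes 25 were tested, with a median log2 fold change of 0.49, and 22 were higher in OX control roots. None was called, 11 of 25 had an unadjusted p under 0.05 (all higher, against 2.90% of all genes), and 3 of 25 had no overlap, with OX above (3.93% of all genes).

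The larger differences were in suberin genes. *FAR4* (AT3G44540), a fatty acyl reductase, was at 40.5, 35.1 and 34.1 FPKM in OX control and at 10.6, 29.8 and 20.9 FPKM in WT control roots (log2 fold change 0.94 ± 0.31 SE, limma adjusted p = 0.766). *CYP86B1* (AT5G23190), a hydroxylase of very long fatty acids, was at 43.7, 35.1 and 55.8 FPKM in OX control and at 8.41, 37.6 and 25.8 FPKM in WT control roots, which overlapped (log2 fold change 1.1, adjusted p = 0.897). *MYB39* (AT4G17785), a transcription factor of suberin synthesis, was at 5.96, 7.84 and 11.8 FPKM in OX control and at 2.24, 6.17 and 2.12 FPKM in WT control roots (log2 fold change 1.26, adjusted p = 0.664). The 3-ketoacyl-CoA synthase gene *KCS20* (AT5G43760) was at 39.5, 57.8 and 63.3 FPKM in OX control and at 29.8, 41.5 and 36.2 FPKM in WT control roots. Its groups overlapped (log2 fold change 0.56, limma adjusted p = 0.85). The Casparian strip genes *CASP1* to *CASP5* had log2 fold changes of -0.20 to 0.48, with overlapping groups and their highest value in WT control replicate 1, while their regulator *MYB36* was at 15.4 to 17.5 FPKM in OX control and 10.0 to 15.2 FPKM in WT control roots (log2 fold change 0.35, SE 0.13).

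In most suberin genes WT control replicate 1, the library with the high photosynthesis values, was the lowest. Without it, the log2 fold change was 0.54 for *FAR4* and 0.49 for *CYP86B1*. The median of the list in that fit was 0.43, and 8 of 25 genes were higher at an unadjusted p under 0.05, against 3.98% of all genes. The list also holds the *CASP* genes, which were highest in that library. Its median therefore does not show whether the suberin difference holds without that library. Without OX control replicate 3 the median was 0.50 with 3 of 25, against 1.68%. Under Al the list had a median of -0.01, with 10 of 25 genes higher in OX roots.

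Photosynthesis genes were lower in OX control roots in 25 of 25 tested genes (median log2 fold change -0.77), but none had an unadjusted p under 0.05 and none separated the groups. *RBCS1A*, a small subunit of Rubisco, was at 12.3, 8.20 and 7.23 FPKM in OX control and at 77.5, 11.4 and 6.86 FPKM in WT control roots. The antenna gene *LHCB1.3* was at 14.4, 6.59 and 11.9 FPKM in OX control and at 84.6, 12.6 and 12.8 FPKM in WT control roots. The difference followed WT control replicate 1. Without it, the median was 0.02 and 14 of 23 tested genes were higher in OX control.

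**Figure D3:**
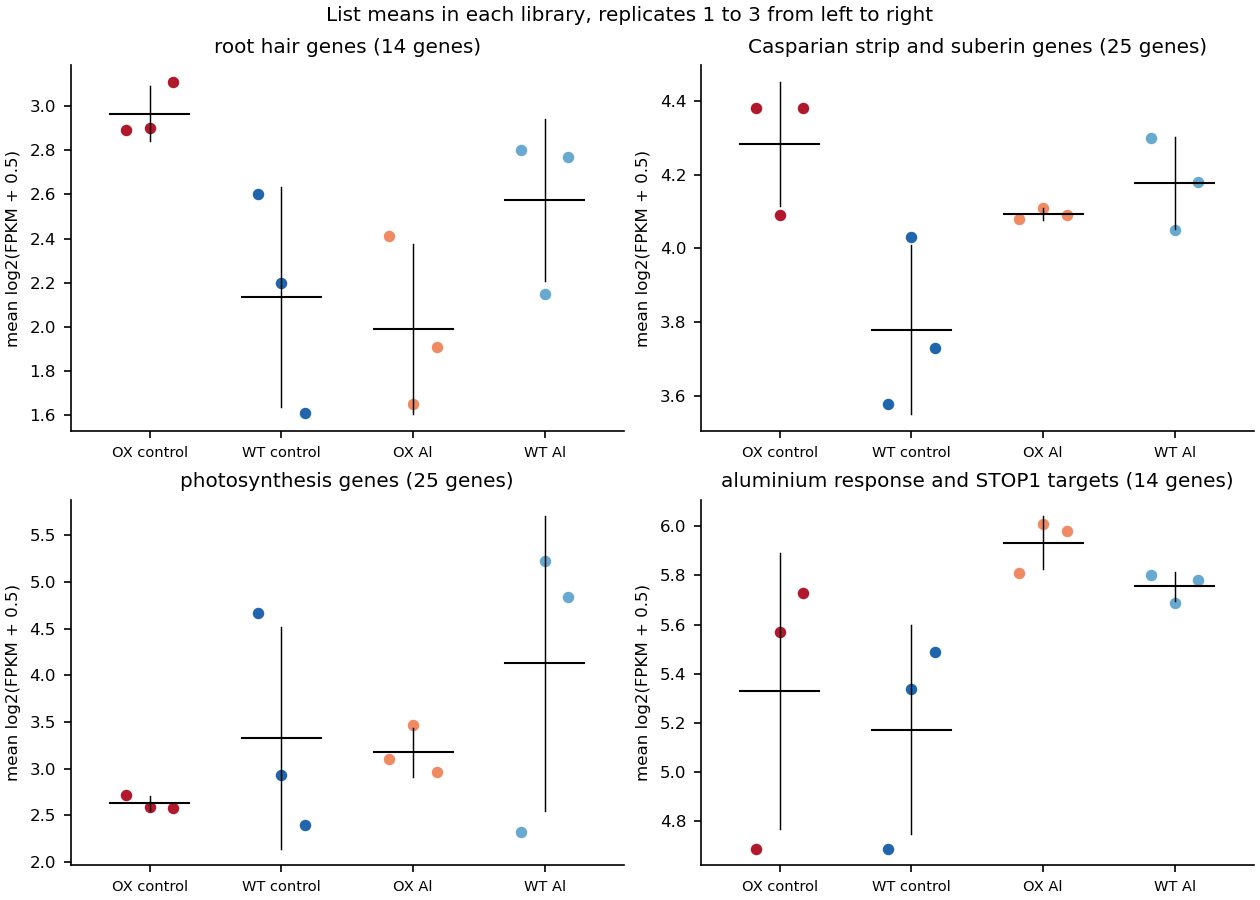
Mean log2(FPKM + 0.5) over the tested genes of 4 lists in each library, 3 points per group, with the group mean (horizontal line) and SD (vertical line). Root hair genes are above 2.8 in the 3 OX control and at or below 2.6 in the 3 WT control libraries, photosynthesis genes are highest without Al in WT control replicate 1 (4.67), and Al response genes are lowest in replicate 1 of both genotypes (4.69).

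Genes of Al resistance did not pass the test without Al. STOP1 is the transcription factor that turns on the malate channel gene *ALMT1*, the citrate transporter gene *MATE* and *ALS3*, which moves Al within the plant. Of 15 listed genes 14 were tested, with a median log2 fold change of 0.15, 9 higher and 5 lower. *STOP1* itself was at 109, 111 and 126 FPKM in OX control and at 135, 112 and 101 FPKM in WT control roots (log2 fold change 0.00, SE 0.12). *ALMT1* was at 30.0, 165 and 161 FPKM in OX control and at 15.6, 95.0 and 121 FPKM in WT control roots (log2 fold change 0.70, SE 0.76). *MATE* was at 8.12, 73.3 and 79.9 FPKM in OX control and at 4.3, 51.5 and 58.1 FPKM in WT control roots, and *ALS3* at 8.92, 38.9 and 51.8 and at 6.84, 23.1 and 37.4 FPKM. In all 3 genes replicate 1 was far below replicates 2 and 3 in both genotypes, and the log2 fold changes of *ALMT1*, *MATE* and *ALS3* were -0.21, -0.57 and -0.15 without WT control replicate 1 and 1.51, 1.66 and 1.28 without OX control replicate 1. With Al, *ALMT1* was at 209 to 385 FPKM in OX and 209 to 314 FPKM in WT roots. The vacuolar transporter gene *ALS1* had a small difference without overlap, 12.3 to 13.8 FPKM in OX control and 10.8 to 11.2 FPKM in WT control roots (log2 fold change 0.22, unadjusted p = 0.0228, adjusted p = 0.916).

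Of the transport and cell wall genes that the study picked from the Al libraries, *DTX14* alone was called without Al. Of 17 genes 12 were tested, with 7 higher, 5 lower and a median log2 fold change of 0.33. Beside *DTX14*, *XTH33*, a xyloglucan-modifying enzyme, had an unadjusted p under 0.05 (0.821, 0.256 and 0.400 FPKM in OX control, 1.76, 0.727 and 1.44 FPKM in WT control roots, log2 fold change -0.86, adjusted p = 1). The groups overlapped in *XTH33*. They overlapped too in the 10 others, *GOLS4* (galactinol synthase), AT2G33160, *PME25*, *PME60*, AT3G59850, *XTH17*, *PME59*, *CSLB3*, *CSLB5* and *PMDH2*, with log2 fold changes of -0.44 to 0.90 (AT2G33160, SE 0.84). *PME25*, a pectin methylesterase and the most abundant of them, was at 47.3, 13.7 and 22.0 FPKM in OX control and at 31.7, 13.6 and 10.9 FPKM in WT control roots. *DTX13*, *DTX15*, *ALMT12*, AT2G43880 and AT2G43890 were below the filter. Without WT control replicate 1 the median of the list was 0.79, with 9 genes tested and 3 of them higher at an unadjusted p under 0.05 (3.98% of all genes in that fit), and without WT control replicate 3 it was -0.16. The study chose this list on libraries of this series, so it is not independent evidence of its direction.

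None of the genes of pathways known for membrane-bound NAC factors was called. The 15 tested membrane-bound NAC genes of Arabidopsis itself had log2 fold changes of -0.16 to 0.29, and none had an unadjusted p under 0.05. *NAC017*, a regulator of mitochondrial stress genes, was at 43.8 FPKM on average in OX control and 41.3 FPKM in WT control roots. Of 17 mitochondrial stress genes 14 were higher (median 0.22), and *GSTU24* had an unadjusted p under 0.05, with 18.3, 15.2 and 22.1 FPKM in OX control and 12.2, 14.5 and 9.34 FPKM in WT control roots (log2 fold change 0.61, adjusted p = 0.686). The log2 fold change was higher in 2 other genes of this list. The related gene *GSTU25* was at 14.9, 8.46 and 12.4 FPKM in OX control and 4.93, 7.55 and 6.32 FPKM in WT control roots, without overlap (log2 fold change 0.86, SE 0.40, unadjusted p = 0.0527), and *SOT12*, a sulfotransferase, overlapped (0.68, SE 0.52). Of 17 endoplasmic reticulum stress genes 13 were higher (median 0.05, highest 0.65 in *SAR1A*, unadjusted p = 0.0726). An unadjusted p under 0.05 was found for 2 of 17, *BZIP28* and *ERDJ3A*, each higher, against 2.90% of all genes. The same 2 had no overlap, with OX above, against 3.93% of all genes. *BZIP28*, a membrane-bound sensor of unfolded proteins, was at 68.7 to 75.4 FPKM in OX control and 51.2 to 61.1 FPKM in WT control roots (log2 fold change 0.32, adjusted p = 0.987), and the chaperone gene *ERDJ3A* at 22.2 to 29.5 and 12.4 to 19.6 FPKM (log2 fold change 0.57, adjusted p = 1). The 18 genes of 26S proteasome subunits had log2 fold changes of -0.13 to 0.14. Their list mean was 6.93, 5.97 and 6.47 in OX control and 6.04, 6.75 and 6.48 in WT control libraries, so OX replicate 1 was the highest and OX replicate 2 the lowest. Abscisic acid, cold and drought genes had a median of 0.09 over 18 tested genes, none with an unadjusted p under 0.05. The cold-regulated gene *COR6.6* was at 4.51, 3.71 and 5.47 FPKM in OX control and 6.36, 7.65 and 7.6 FPKM in WT control roots, without overlap (log2 fold change -0.61, SE 0.29), and had a log2 fold change of 1.06 under Al.

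Of the nutrient lists, phosphate starvation genes had a median of -0.09 over 22 genes, with *AT4* alone at an unadjusted p under 0.05. Without OX control replicate 1 the median was -0.31, with 6 of 21 genes at an unadjusted p under 0.05, all lower, against 1.47% of all genes in that fit. In nitrate assimilation (18 genes, median 0.04), *LBD39*, a repressor of anthocyanin synthesis and nitrate genes, was at 15, 13.9 and 12.7 FPKM in OX control and at 32.4, 20.1 and 22.5 FPKM in WT control roots (log2 fold change -0.80, adjusted p = 0.787, limma). The nitrate reductase gene *NIA2* was at 65.3, 112 and 102 FPKM in OX control and at 59.1, 82.2 and 53.4 FPKM in WT control roots (log2 fold change 0.51, adjusted p = 1). Iron genes (20 genes, median 0.03) held *IMA1*, a peptide of iron signalling, at 0.749, 0 and 0.0774 FPKM in OX control and 0.983, 0.451 and 1.54 FPKM in WT control roots. Flavonoid (8 genes, median 0.33), glucosinolate (19 genes, 0.30), pathogen defence (12 genes, 0.14) and circadian clock genes (24 genes, -0.13) had no called member, and of these *4CL3* alone, of the flavonoid list, had an unadjusted p under 0.05 (log2 fold change 0.67, adjusted p = 1).

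**Figure D4:**
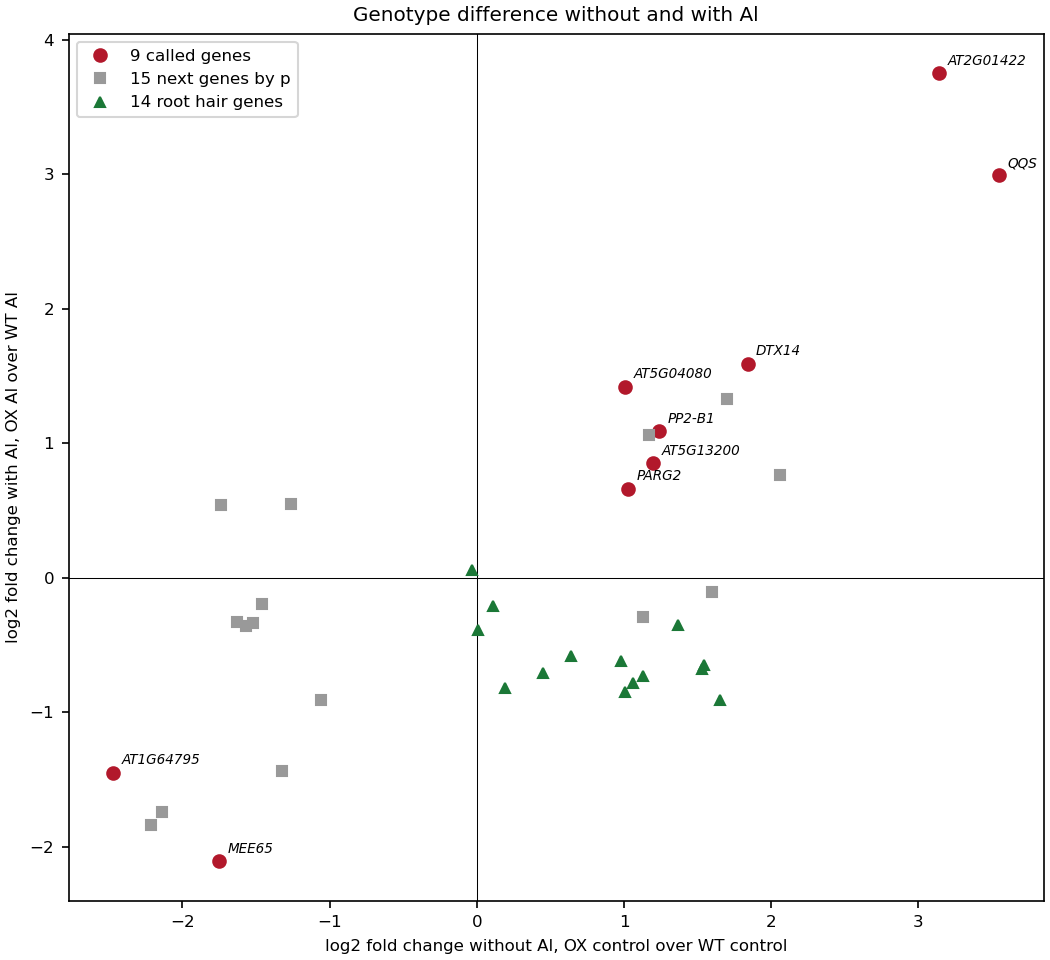
Log2 fold change of OX over WT roots without Al (horizontal axis) and with Al (vertical axis) for the 9 called genes, the 15 next genes by p and the 14 tested root hair genes. The called genes have the same sign on both axes, while 13 of 14 root hair genes were higher without Al and 13 of 14 lower with Al in OX roots.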

How the data were processed

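RNA-seq of roots was analysed in 12 libraries, whose labels give genotype and treatment. According to the methods, the authors aligned reads to TAIR10 with HISAT2, obtained gene counts with HTSeq (0.6.0 in the submitters' processing notes) and deposited FPKM per gene and library. Kit strandedness and filters are not given in the sources used here. The deposited FPKM were whole multiples of a step per gene once scaled by a factor per library (tolerance 1e-05), and fragments were read back for 100.0% of 25872 genes. Of the implied lengths, 99.16% were whole base pairs (tolerance 0.01).

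Genes with FPKM of at least 0.5 in at least 3 of the 6 control libraries were kept. Log2(FPKM + 0.5), without further scaling, was fitted with limma 3.58.1 (R 4.3.3), a mean per group over all 12 libraries, with variance trend. Benjamini-Hochberg adjustment ran over 19966 genes. The p-values measure the spread between libraries, which the labels do not tie to separate cultures. The fit was tested on simulated data. Symbols, positions and sequences are from RefSeq TAIR10.1 (25579 identifiers matched).

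The members and lists were chosen with earlier results of these data known. The genes named were all called genes, the next by p to 12 per direction with no overlap, up to 4 list members at an unadjusted p under 0.05, the genes the study named, *ALMT1*, *MATE*, *ALS3* and *STOP1*. Other list members were named after their values were seen. The alternatives were other pseudocounts, filters, scalings, spread estimates, voom, a pooled fragment test, a block for the replicate number, and leaving out each replicate. Tables and plots were made with pandas 2.3.3, matplotlib 3.10.9 and numpy 2.4.6 (Python 3.11.15).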

Additional observations from a re-analysis of the deposited data

How the results depend on the processing

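The count of 7 higher and 2 lower genes without Al was 7 and 2 with a pseudocount of 0.1, with median-ratio scaling and by the adjusted p alone, and 5 and 2 with quantile normalization. It was 3 and 2 with a pseudocount of 1, with no filter on low values and with no variance trend, 3 and 1 at a mean FPKM of at least 1, 2 and 0 by voom on fragments, and 0 and 0 with only the libraries without Al. With each control library left out in turn, calls numbered 1 to 7 on the higher and 0 to 1 on the lower side. A binomial test of the fragments summed over replicates, which takes no variation between replicates, called 295 higher and 227 lower. The genes called under the other alternatives were all among the 9, except with OX control replicate 2 (5 of 8) or WT control replicate 1 (3 of 4) left out. Under Al, 8 genes were called, 617 by the summed test, 5 by voom and 7 to 11 with the other alternatives apart from the block.

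Same-numbered OX and WT control libraries had residual correlations of 0.172, -0.0989 and 0.247, and differently numbered ones -0.287 to 0.126. *ALMT1*, *MATE* and *ALS3* were lowest in replicate 1 of both genotypes, while photosynthesis genes were high in replicate 1 of WT control alone. These values do not settle whether the replicate numbers pair the samples. The main fit used no block for the number. With the replicate number as a block within treatment, 1 gene was called higher and 0 lower without Al and 1 in all under Al. The block gave 0 and 0 with only the libraries without Al. For the interaction of genotype and Al, 0 genes were called under every alternative run, the block included.

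The alternatives were run for the genes chosen by the naming rule, not for other list members named in the text. Of those without a call, 10 changed sign under at least 1 alternative. With a library left out, the log2 fold change ranged from -0.17 to 0.67 for *GOLS4*, -0.16 to 1.0 for *PME60*, -0.03 to 0.94 for AT3G59850, -1.07 to 0.51 for *XTH17* (0.20 without OX control replicate 3), -0.84 to 0.79 for *CSLB3* (0.02 and 0.03 without OX control replicates 1 and 3), -0.88 to 0.08 for *PMDH2*, -0.21 to 1.51 for *ALMT1*, -0.57 to 1.66 for *MATE*, -0.15 to 1.28 for *ALS3* and -0.09 to 0.11 for *STOP1* (-0.06 and -0.02 without OX control replicate 3 and WT control replicate 2). *CSLB3* was at 0.07 with a pseudocount of 0.1 and at 0.14 by voom, and *STOP1* at -0.01 with quantile normalization and in the summed test. The cause was not tested. In the other alternatives of named genes, 852 kept sign and call, 84 lost the call and 23 gained it. Of the list medians, 357 kept within the spread between replicates and 3 moved by more: root hair genes without WT control replicate 3 (0.56), and, without WT control replicate 1, clock genes (0.03) and root-tip markers (0.14). Medians counted as kept could still shift widely or change sign. With a library left out they ran from -1.16 to 0.02 for photosynthesis genes and -0.16 to 0.79 for the genes the study named. For proteasome subunits they ran from -0.21 to 0.27. Depth limits the genes with few fragments in at least 1 control group, among them AT1G64795, *MEE65*, AT1G04517, AT5G43064, ATCG00660 (6 in OX control), AT2G08735 and AT4G07868 (13 each).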

Other observations

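The photosynthesis genes also varied between libraries with Al. Their mean on the log2(FPKM + 0.5) scale was 3.1, 3.47 and 2.96 in OX Al and 2.32, 5.22 and 4.84 in WT Al libraries, so WT Al replicate 1 was the lowest of the 6 and replicates 2 and 3 the highest. The meristem gene *STM* was at up to 0.908 FPKM in WT Al, against up to 0.242 FPKM in WT control.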
